A study of Homo sapiens with 12 samples.

Results

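SIVA-D160N transfectants were compared with control cells in 4 human cancer cell lines, using 8 of the 12 RNA libraries of the series. The 8 libraries were taken by their labels, 1 SIVA-D160N and 1 control library from each line, and were paired by line. The breast cancer lines were MDA-MB-231 and HCC1954, and the ovarian cancer lines were OVCAR8 and SKOV3 (OVAR-8 and SKOV-3 in the labels). The other 4 libraries came from cells given the wild type vector (SIVA-WT), and they entered the fit that estimates the spread and are set beside SIVA-D160N where stated. All cells were grown in RPMI-1640 with fetal bovine serum. The SIVA-D160N cells are stable polyclonal pools, made by lipofection of a linearized vector that drives SIVA from the CMV promoter with GFP behind an IRES, followed by drug selection. The drug was hygromycin by the labels and the study's methods, which name the parent vector for puromycin. The labels call the control libraries parental and untreated, and the supplement also calls them empty vector (EV) cells. If they are untransfected, transfection, drug selection and the SIVA-D160N protein cannot be told apart in this comparison.

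SIVA, the product of SIVA1, is a small zinc-binding protein first found as a partner of the receptor CD27. It is known to favour apoptosis, and it also binds BCL-XL, XIAP, MDM2 and stathmin, the last of which controls microtubules. In the mutant protein, D160N, an asparagine takes the place of an aspartate near the carboxyl end. The comparison addresses which genes and pathways differ in cancer cells that carry this mutant.

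Counts per library summed to between 35791455 and 45890398, and mitochondrial genes took 3.61% to 5.77% of them. Counts are given here as CPM (counts scaled to a common library size with edgeR's TMM factors), always in the order MDA-MB-231, HCC1954, OVCAR8 and SKOV3. SIVA1 was at 28.1, 0, 66.3 and 52.6 CPM in control and at 68.2, 26.6, 161 and 112 CPM in SIVA-D160N, so each SIVA-D160N library held more SIVA1 RNA than its control. Gene counts do not separate RNA of the vector from RNA of the cell's own gene. The HCC1954 control held 0 counts of SIVA1, which allows up to 0.0720 CPM (3 counts, counting error only), so the 4 pairs start from unequal levels of SIVA1.

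Marker genes followed the labels of the lines in part. ERBB2, the HER2 receptor gene, was at 32.1, 9223, 78.1 and 12170 CPM in the 4 control libraries, with the high values in HCC1954 and SKOV3. PAX8, a Mullerian lineage factor, was at 3.43, 2.25, 76.4 and 230 CPM in control, and it was highest in the ovarian lines. MUC16, the gene of the ovarian tumour antigen CA125, was at 0.0221, 66.1, 0.0274 and 0.556 CPM in control, so it was near 0 in both ovarian lines and high in the breast line HCC1954. Of 8 markers of blood, vessel, muscle and stromal cells, the summed level ran from 1.48 to 83.7 CPM in control and from 1.06 to 47.6 CPM in SIVA-D160N. The highest sums were those of HCC1954, where PECAM1, an adhesion molecule of endothelial cells, was at 62.8 CPM in control and 32.6 CPM in SIVA-D160N. PTPRC, the pan-leukocyte marker, was at 0.312 and 0.371 CPM in HCC1954 and at 0 in the other 3 lines. The part of these markers in the results was not tested.

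The 17211 genes left by the low-count filter of edgeR were tested with edgeR's quasi-likelihood test, with the cell line as a block and the 4 lines as replicates. The edgeR FDR is the Benjamini-Hochberg adjusted p-value of that test. Calls needed an FDR below 0.05 together with a log2 fold change of 1.5 or more in size, and 1 gene, DIO2, was called (0.00581% of the genes tested). The gene groups below are therefore counted at an unadjusted p under 0.05, which 6.52% of all genes passed as higher and 7.68% as lower. They are also counted by whether the log2 ratio had the same sign in all 4 lines, which held for 6.85% of genes as higher and 8.34% as lower; a line with no counts in either library has no sign. Fits with a line left out have their own shares of all genes. The shares higher and lower were 5.51% and 5.76% without MDA-MB-231, and 3.93% and 5.73% without HCC1954. They were 6.69% and 8.18% without OVCAR8, and 6.14% and 7.26% without SKOV3. A fit of the 8 libraries alone had 3.17% and 4.35%. Some list members were not tested in these fits. A difference within one line rests on 1 library of each kind and has no replicate check.

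DIO2 (ENSG00000211448) encodes type 2 deiodinase, the enzyme that turns thyroxine into the active thyroid hormone. It lies on chromosome 14 from 80197526 to 80231057 (GRCh38.p14, RefSeq). Its level was 0.0664, 35.5, 0.137 and 15.4 CPM in control and 0.0729, 169, 0.262 and 129 CPM in SIVA-D160N. DIO2 RNA was abundant in HCC1954 and SKOV3 alone, and it was higher there by 4.76-fold and 8.35-fold. MDA-MB-231 held 3 and 3 counts and OVCAR8 held 5 and 10, in control and SIVA-D160N, so the rise rests on HCC1954 and SKOV3. Across the lines DIO2 rose by 2.49 on the log2 scale (standard error 0.25, edgeR FDR 0.0133). The FDR was 0.0647 without MDA-MB-231 and 0.123 without SKOV3, and over all the settings tried for the gene DIO2 it ran from 4.13e-15 to 1. DIO2 in SIVA-WT was 0.101, 101, 0.315 and 84.8 CPM, and SIVA-D160N differed from it by 0.57 (standard error 0.23, edgeR FDR 0.719). In bulk RNA, fewer cells that express a gene and less RNA per cell cannot be told apart.

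**Figure D1:**
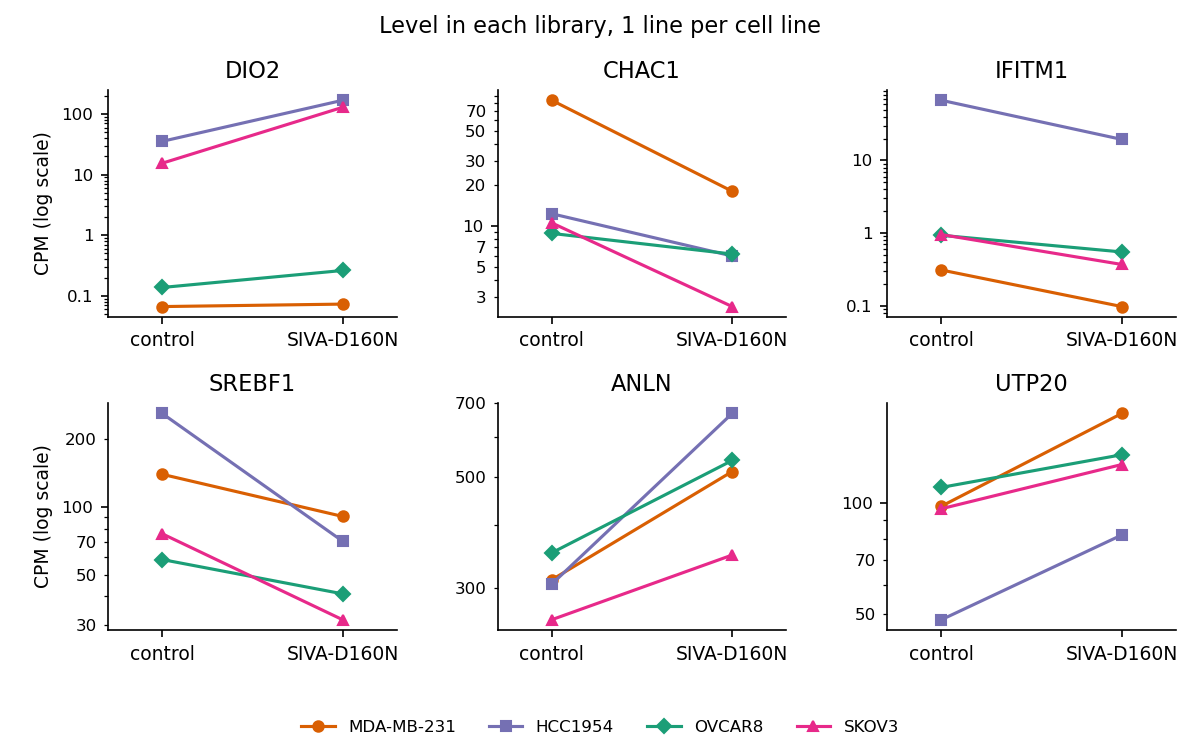
Each panel plots the level of 1 gene, in CPM on a log axis, in the control and SIVA-D160N library of each line, joined by a line. DIO2 lies between 0.0664 and 0.262 CPM in MDA-MB-231 and OVCAR8 and far higher in HCC1954 and SKOV3, while the other 5 genes have the same direction in all 4 lines.

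Among 11133 genes with at least 1 CPM in every line, 2 were at least 1.5-fold higher in all 4 lines (0.0180%) and 4 were at least 1.5-fold lower (0.0359%). The higher genes were SIVA1 itself and DNAH5, which encodes a heavy chain of the dynein of motile cilia. DNAH5 was at 3.38, 9.38, 2.52 and 1.35 CPM in control and 5.20, 15.1, 4.16 and 2.34 CPM in SIVA-D160N, a narrow range of 1.53 to 1.71-fold, with a fitted log2 fold change of 0.70 (standard error 0.13, edgeR FDR 0.128). PAQR6, a membrane receptor for progestins, was at 11.6, 20.4, 9.62 and 11.3 CPM in control and 5.25, 11.7, 5.83 and 6.53 CPM in SIVA-D160N. Its level in SIVA-WT was 7.86, 29.5, 9.41 and 11.3 CPM, and SIVA-D160N was lower than SIVA-WT by 0.87 on the log2 scale (standard error 0.16, edgeR FDR 0.719). FAM229A, a gene whose role is little known, was at 8.65, 12, 1.04 and 11.5 CPM in control and 5.37, 7.02, 0.602 and 5.93 CPM in SIVA-D160N, between 1.6-fold and 1.93-fold lower. FOSB, a subunit of the AP-1 transcription factor, was at 1.77, 15.9, 1.70 and 97 CPM in control and 0.826, 10.02, 0.916 and 1.53 CPM in SIVA-D160N. The difference of FOSB was 61.5-fold in SKOV3 and no more than 2.08-fold in the other lines, and its standard error was 1.54 around a fitted log2 fold change of -3.29 (edgeR FDR 0.364). The fourth lower gene is a long non-coding RNA by the reference, and the rule for named genes took protein-coding genes only.

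Of all genes tested, 2 were at least 2-fold higher in exactly 3 lines (0.0116%) and 7 were at least 2-fold lower (0.0407%). In every one of them the remaining line was OVCAR8. OXTR, the oxytocin receptor, was at 0.885, 2.54, 238 and 6.54 CPM in control and 1.94, 8.02, 230 and 19.4 CPM in SIVA-D160N. OVCAR8 held far more OXTR than the other lines, and there its level hardly differed. HSPA1A, an inducible HSP70 chaperone, was at 0.951, 89.3, 253 and 33.8 CPM in control and 3.38, 189.9, 201 and 93.1 CPM in SIVA-D160N, and its values are uncertain because it is nearly identical to HSPA1B. STC1, the secreted glycoprotein stanniocalcin-1, was at 109.6, 21, 0.439 and 45.7 CPM in control and 51.6, 7.62, 0.628 and 19.1 CPM in SIVA-D160N, with edgeR FDR 0.136. SEL1L3, a membrane protein of the SEL1L family, was at 76.7, 45.9, 6.47 and 24.9 CPM in control and 22.9, 21.3, 6.12 and 6.35 CPM in SIVA-D160N, with edgeR FDR 0.159. NUPR1, CHAC1 and ASNS, also among these lower genes, belong to the stress response described next. OVCAR8 had the smallest spread of log2 ratios over the 11133 genes (SD 0.303, against 0.407 to 0.458 in the other lines).

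**Figure D2:**
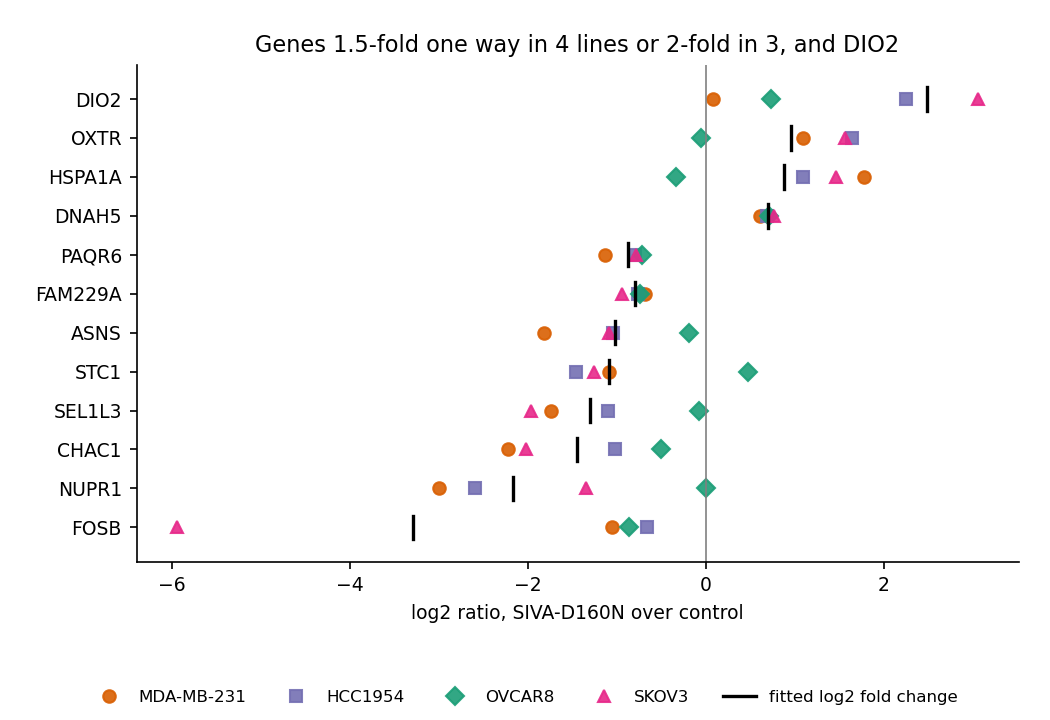
The log2 ratio of SIVA-D160N over control is plotted for 12 genes, with 1 point for each line and a bar at the fitted log2 fold change. OVCAR8 sits within 0.50 of zero for OXTR, HSPA1A, ASNS, STC1, SEL1L3, CHAC1 and NUPR1, and PAQR6, FAM229A and DNAH5 hold 4 points close together.

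Genes of the integrated stress response were lower in part, and most widely in MDA-MB-231. In this pathway kinases such as PERK and GCN2 phosphorylate the translation factor eIF2alpha when amino acids run short or proteins misfold, and the transcription factor ATF4 then turns on genes of amino acid synthesis, uptake and stress signalling. Of 39 such genes tested, 22 were lower and 0 were higher at an unadjusted p under 0.05, against 7.68% of all genes lower. All 4 lines were lower for 15 of the 39, against 8.34% of all genes. The list's median fitted log2 fold change was -0.56, against -0.01 for all genes, and the smallest FDR in the list was 0.128. By line the median log2 ratio was -1.46, -0.37, -0.14 and -0.39, lowest in MDA-MB-231. In MDA-MB-231, 32 of the 39 genes were at least 1.5-fold lower, against 11.8% of all genes, and in HCC1954 and SKOV3 it was 14 and 16 of them, against 13.1% and 14.3%. OVCAR8 had 1 gene at least 1.5-fold lower, against 5.14%. Without MDA-MB-231 the fit had 14 of the 39 lower and 1 higher, against 5.76% and 5.51% of all genes. The list's median was then -0.24.

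CHAC1, which breaks down glutathione, was at 83.8, 12.3, 8.83 and 10.5 CPM in control and 18, 6.02, 6.23 and 2.56 CPM in SIVA-D160N. It was lower in all 4 lines, by 1.41-fold in OVCAR8 and 4.64-fold in MDA-MB-231, with a fitted log2 fold change of -1.44 (standard error 0.28, edgeR FDR 0.131). ASNS, asparagine synthetase, was at 697, 73.6, 79.2 and 45.3 CPM in control and 198, 35.9, 69.2 and 21.3 CPM in SIVA-D160N, with a fitted log2 fold change of -1.02 (standard error 0.22, edgeR FDR 0.148). PCK2, the mitochondrial enzyme that makes phosphoenolpyruvate, was at 313, 70.4, 114 and 24.6 CPM in control and 83.1, 36.5, 94.1 and 13.1 CPM in SIVA-D160N. All of these had the widest gap in MDA-MB-231, whose control library held the highest level. NUPR1, a small stress-induced chromatin protein, was at 2.68, 53.6, 0 and 10.7 CPM in control and 0.291, 8.85, 0 and 4.19 CPM in SIVA-D160N. It was without counts in both OVCAR8 libraries, and its fitted log2 fold change of -2.17 (standard error 0.37, edgeR FDR 0.128) rests on the other 3 lines. DDIT4, an inhibitor of mTORC1, was at 752, 158, 9.43 and 63.8 CPM in control and 192, 26.8, 7.46 and 47.9 CPM in SIVA-D160N, and its gap was widest in HCC1954. ATF4 itself, named here after its values were seen like DDIT3 and TRIB3, was at 640.4, 296, 484 and 361 CPM in control and 556, 228, 409 and 223 CPM in SIVA-D160N. Its fitted log2 fold change was -0.38 (standard error 0.09, edgeR FDR 0.154), smaller than that of most of its targets above. DDIT3, which encodes the death-linked factor CHOP, was at 103, 8.45, 16.1 and 26.8 CPM in control and 21.5, 6.71, 14.9 and 17.7 CPM in SIVA-D160N. TRIB3, a pseudokinase that dampens ATF4, was at 330.5, 136, 29.6 and 25.5 CPM in control and 43.1, 79.1, 23.9 and 21.8 CPM in SIVA-D160N, so that MDA-MB-231 alone was more than 2-fold lower.

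The promoters of this group were searched for the letters of the ATF4 response element, TGATGNAA, on both strands of windows from 250 bases before to 50 after the RefSeq start (GRCh38.p14). Promoters of 33 of the 40 genes were matched, and 7 of them held the letters (21.2%), against 3.67% of all 27305 promoters of the same length. The stretches from 4 of these promoters are shown because the genes belong to the group above, with the matched letters in capitals and read along the strand of the gene.
ASNS, chr7:97872458-97872487 (-): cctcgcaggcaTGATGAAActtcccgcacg
CHAC1, chr15:40953251-40953280 (+): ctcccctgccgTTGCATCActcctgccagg
ATF3, chr1:212565205-212565234 (+): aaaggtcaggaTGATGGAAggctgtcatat
BCAT1, chr12:24949131-24949160 (-): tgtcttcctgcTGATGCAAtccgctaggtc
The genes holding these letters did not share a direction of their RNA. ASNS and CHAC1 were lower in all 4 lines, ATF3 was at -1.78, 0.25, 0.01 and -4.08 in log2 ratio and BCAT1 at -0.38, 0.15, 0.39 and 0.75. A match is a description of the letters, not of a bound site.

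Of 20 tRNA synthetase genes, which are partly under ATF4, 6 were lower (30%, against 7.68% of all genes) and 0 were higher at an unadjusted p under 0.05. Their median was -0.06 (-0.12 to 0.03 with 1 line left out). AARS, the alanyl-tRNA synthetase, was at 634, 376, 380.2 and 311 CPM in control and 383, 310.1, 303 and 246 CPM in SIVA-D160N, lower in all 4 lines, with a fitted log2 fold change of -0.42 (standard error 0.10, edgeR FDR 0.154). CARS, GARS and YARS, the synthetases for cysteine, glycine and tyrosine, were also lower in all 4 lines, with fitted log2 fold changes of -0.51, -0.35 and -0.28. Without MDA-MB-231, 3 of the 20 were lower, and without OVCAR8 4 were higher and 5 lower. Of 20 genes of protein folding stress in the endoplasmic reticulum, 2 were lower and 0 higher, a share of 10% against 7.68%, and leaving out 1 line gave 0 lower without MDA-MB-231, 1 without HCC1954 and 3 higher with 3 lower without OVCAR8. XBP1, the factor of that response, was at 202, 369.7, 80.04 and 86.8 CPM in control and 91.2, 208, 73.2 and 93.9 CPM in SIVA-D160N, lower in the breast lines and close to control in the ovarian lines. HERPUD1, which helps to clear misfolded proteins, had fitted log2 fold change -0.49 (edgeR FDR 0.233).

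Interferon-stimulated genes were also lower in part, mostly in HCC1954 and SKOV3. Interferons signal through receptors and their JAK kinases to turn on antiviral genes, and cancer cells often keep a low level of this program without infection. Of 39 genes tested, 14 were lower and 0 higher at an unadjusted p under 0.05, against 7.68% of all genes lower. All 4 lines were lower for 9 of the 39, against 8.34% of all genes, and the smallest FDR in the list was 0.128. The median fitted log2 fold change was -0.38, with line medians of -0.08, -0.92, 0.00 and -0.49. HCC1954 had 25 of the 39 genes at least 1.5-fold lower and SKOV3 had 18, against 13.1% and 14.3% of all genes. MDA-MB-231 had 6 lower (15.4%, against 11.8% of all genes) and 4 higher (10.3%, against 8.72%). OVCAR8 had 3 lower (7.69%, against 5.14%) and 7 higher (17.9%, against 7.93%). In these lines the shares lower were near those of all genes. Without HCC1954, 38 of the genes were tested, with 7 lower and 1 higher, against 5.73% and 3.93% of all genes. Their median was -0.16. A fit of the 8 libraries alone tested 36 and had 8 lower, against 4.35% of all genes.

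IFITM1, a membrane protein that blocks virus entry, was at 0.310, 67.4, 0.932 and 0.954 CPM in control and 0.0972, 19.5, 0.549 and 0.369 CPM in SIVA-D160N. Although only HCC1954 held much of it, all 4 lines were lower, by 1.64-fold to 3.45-fold, with a fitted log2 fold change of -1.44 (standard error 0.23, edgeR FDR 0.128). SIVA-WT was at 0.430, 38.8, 0.788 and 0.807 CPM, and SIVA-D160N differed from it by -1.06 (standard error 0.24, edgeR FDR 0.719). OAS2, which makes the oligoadenylate that activates RNase L, was at 0.177, 72.2, 0.0274 and 2.99 CPM in control and 0.194, 9.85, 0 and 0.788 CPM in SIVA-D160N. OAS1, its relative, was at 0.0442, 34, 0 and 3.71 CPM in control and 0, 11.5, 0 and 0.492 CPM in SIVA-D160N. Both were lower in HCC1954 and SKOV3 and near 0 in the other lines, and the edgeR FDR was 0.130 for OAS2 and 0.136 for OAS1. XAF1, a partner of XIAP, was at 0.177, 18.9, 0 and 0.609 CPM in control and 0.0972, 2.37, 0 and 0.172 CPM in SIVA-D160N, and OVCAR8 had no counts of it. UBA7, the enzyme that activates the ubiquitin-like ISG15, is outside the list and was named after its values were seen. It was at 0.995, 24.6, 0.713 and 1.85 CPM in control and 0.364, 8.28, 0.340 and 0.936 CPM in SIVA-D160N, lower in all 4 lines, with a fitted log2 fold change of -1.32 (standard error 0.20, edgeR FDR 0.128).

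The letters of the interferon response element (TTTC, any 2 bases, TTTC) were found on either strand in 18 of 33 matched promoters of this list (54.5%), against 3.65% of all promoters. Windows from 3 of them are shown, with the matched letters in capitals. These 3 genes do not cover every response in the list.
IFITM1, chr11:314024-314053 (+): acacttctgaGAAACTGAAAcgacagggga
OAS3, chr12:112938321-112938350 (+): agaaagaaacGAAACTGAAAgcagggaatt
MX1, chr21:41420559-41420588 (+): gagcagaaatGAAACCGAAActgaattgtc
The IFITM1 window belongs to a gene that was lower in all 4 lines, and MX1, at -0.24, -0.70, -0.14 and -0.70 in log2 ratio, was also lower in all 4. OAS3 was at 1.55, -0.46, -0.15 and -0.45, higher in MDA-MB-231 and lower in the other lines.

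**Figure D3:**
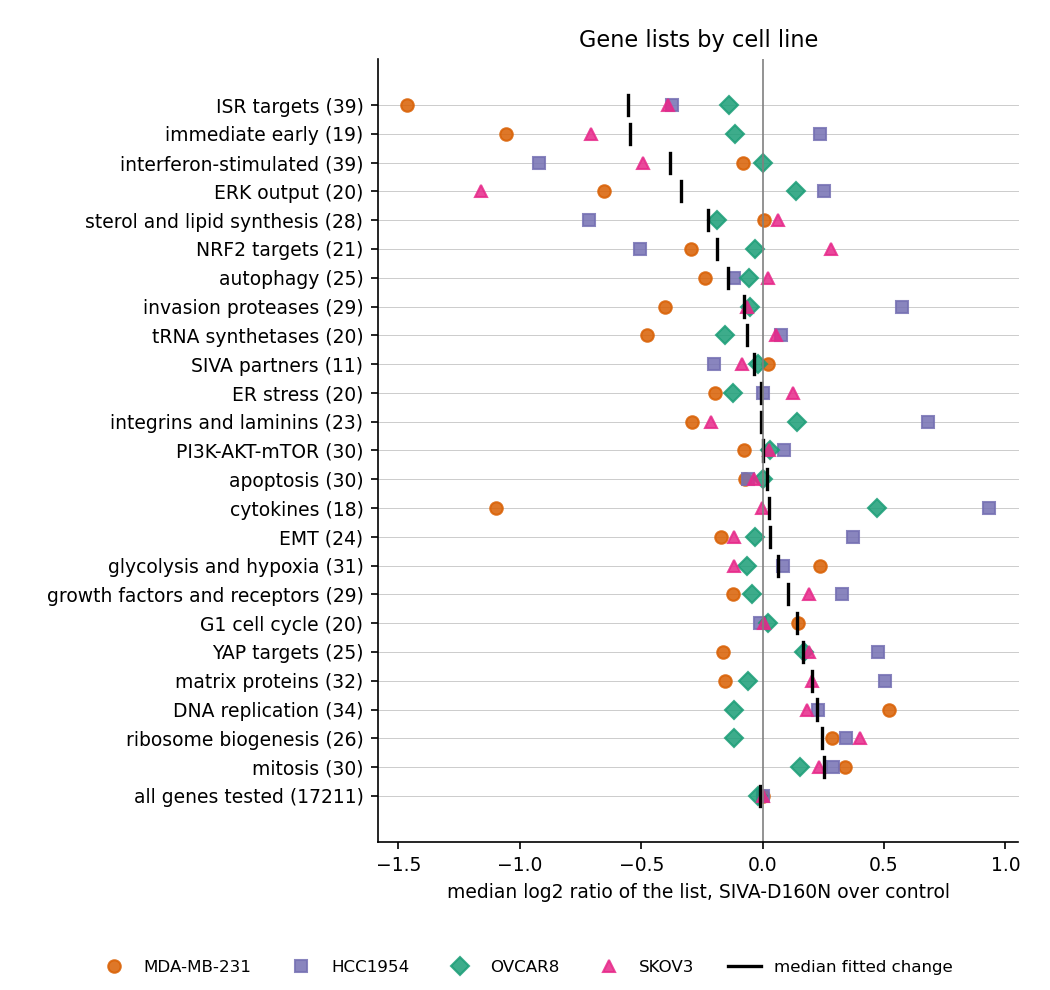
The median log2 ratio of SIVA-D160N over control is plotted for each of 24 gene lists and for all genes, with 1 point for each line, a bar at the median fitted log2 fold change and the number of genes tested in brackets. The stress response list reaches -1.46 in MDA-MB-231, the interferon list -0.92 in HCC1954, and the mitosis list is above 0 in all 4 lines.

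Some genes of lipid supply were lower. The factors SREBP1 and SREBP2, encoded by SREBF1 and SREBF2, turn on genes of fatty acid and cholesterol synthesis and uptake. Of 28 such genes, 8 were lower and 0 higher at an unadjusted p under 0.05, against 7.68% of all genes lower. All 4 lines were lower for 7 of the 28, against 8.34% of all genes. The median was -0.22, and by line it was 0.01, -0.71, -0.19 and 0.06, so the list as a whole was lower chiefly in HCC1954. Without HCC1954, 5 were lower and 2 higher, against 5.73% and 3.93% of all genes, and the median was -0.05. SREBF1 was at 139.5, 259.9, 58.4 and 76 CPM in control and 90.7, 70.5, 41.1 and 31.6 CPM in SIVA-D160N, with a fitted log2 fold change of -1.07 (standard error 0.21, edgeR FDR 0.133). SCD, the desaturase that makes oleate, was at 1635, 1807, 306 and 722 CPM in control and 1301, 361, 195 and 218 CPM in SIVA-D160N. INSIG1, which holds SREBP in the endoplasmic reticulum, was at 145, 80.9, 30.04 and 92.8 CPM in control and 122, 29.97, 20.7 and 41.7 CPM in SIVA-D160N. These 3 genes were lower in all 4 lines, with edgeR FDR values of 0.133 to 0.154. In SIVA-WT the same list had a median of 0.04 against control. Of its 28 genes, 11 were lower in SIVA-D160N than in SIVA-WT at an unadjusted p under 0.05, against 4.30% of all genes lower and 6.88% in either direction. The comparisons of SIVA-D160N with SIVA-WT and with control use the same SIVA-D160N libraries, so their counts are not independent. SCD was at 1495, 1261, 379.7 and 668 CPM in SIVA-WT, and SIVA-D160N differed from it by -1.08 (standard error 0.28, edgeR FDR 0.719).

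Genes of cell division were among the higher genes. The mitosis list holds cyclins, kinases, motors and checkpoint proteins that act from the end of DNA replication to the split of the cell. Of 30 genes, 19 were higher and 0 lower at an unadjusted p under 0.05, against 6.52% of all genes higher, and 13 were higher in all 4 lines. All 30 had a fitted log2 fold change above 0, with a median of 0.25 and line medians of 0.34, 0.29, 0.15 and 0.23. These differences were small, and only 1 to 4 genes in each line were at least 1.5-fold higher. By line those were 10%, 10%, 13.3% and 3.33% of the list, against 8.72%, 11.1%, 7.93% and 7.04% of all genes. Without MDA-MB-231, 10 of the 30 were higher, and without HCC1954 9, against 5.51% and 3.93% of all genes. In a fit of the 8 libraries alone 9 were higher, against 3.17% of all genes.

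ANLN, anillin, which organises the contractile ring that divides the cell, had the widest difference of the list. It was at 312, 305, 352 and 259 CPM in control and 512, 668, 538 and 349 CPM in SIVA-D160N. All 4 lines were higher, by 1.34-fold to 2.19-fold, with a fitted log2 fold change of 0.72 (standard error 0.12, edgeR FDR 0.128). BUB1 and BUB1B, kinases of the spindle checkpoint, were higher in all 4 lines, with fitted log2 fold changes of 0.26 and 0.29 and edgeR FDR values of 0.185 and 0.211. DLGAP5, a spindle protein, was at 202, 102, 175 and 99.6 CPM in control and 309, 126, 193 and 121 CPM in SIVA-D160N. MKI67, which encodes the proliferation marker Ki67 and was named after its values were seen, was at 291, 446, 496 and 835 CPM in control and 422, 581, 587 and 829.5 CPM in SIVA-D160N, higher in all lines but SKOV3. In its proliferation assay of MDA-MB-231 cells with luciferase, the study reports similar rates for SIVA-D160N, SIVA-WT and EV cells.

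The letters TTTGAA of the cell cycle homology region were found in 18 of 25 matched promoters of the mitosis list (72.0%), against 15.4% of all promoters. Windows from 3 genes with these letters are shown, with the match in capitals.
ANLN, chr7:36389830-36389859 (+): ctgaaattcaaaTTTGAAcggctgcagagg
BUB1B, chr15:40161034-40161063 (+): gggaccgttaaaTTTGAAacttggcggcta
MKI67, chr10:128126435-128126464 (-): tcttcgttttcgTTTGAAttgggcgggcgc
ANLN holds the letters on both strands side by side, and none of the matches of the 4 motifs in these lists overlapped a match of another motif. For the sterol list, the letters TCACNCCAC were in 1 of 21 matched promoters (4.76%) against 1.15% of all promoters, and no window is shown.

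DNA replication genes were higher as well, although less evenly. Of 34 genes, 8 were higher and 0 lower at an unadjusted p under 0.05, against 6.52% of all genes higher. All 4 lines were higher for 11 of the 34, against 6.85% of all genes, and the line medians were 0.52, 0.23, -0.12 and 0.18. OVCAR8 was the line with a median under 0. Without MDA-MB-231 3 genes were higher, without HCC1954 5, and without OVCAR8 20, against 5.51%, 3.93% and 6.69% of all genes. MCM4, a subunit of the replicative helicase, was at 117, 254, 524 and 328 CPM in control and 258, 388, 562 and 363 CPM in SIVA-D160N, and MCM10, which starts the fork, at 36.1, 55.6, 72.8 and 48.5 CPM and 75.5, 78.6, 80.7 and 56.5 CPM. Their fitted log2 fold changes were 0.49 and 0.48, with edgeR FDR values of 0.245 and 0.221. RRM2, the ribonucleotide reductase subunit that supplies nucleotides, was at 168, 323, 254 and 232 CPM in control and 266, 445, 269.5 and 301 CPM in SIVA-D160N.

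Of 20 genes of the G1 phase, 4 were higher (20%, against 6.52% of all genes) and 2 lower (10%, against 7.68%). Without MDA-MB-231 2 were higher and 1 lower, where 5.51% of all genes were higher and 5.76% lower. CDK6, a kinase that opens the G1 phase, was at 128, 55.6, 86.8 and 90.7 CPM in control and 136, 103, 111 and 132 CPM in SIVA-D160N, higher in all 4 lines (edgeR FDR 0.154). CCNE2, cyclin E2, was at 19.5, 37.8, 36.6 and 32.5 CPM in control and 50.7, 48.5, 48.1 and 36.4 CPM in SIVA-D160N. CDKN1A, the cell cycle inhibitor p21, was at 156, 53.9, 16.2 and 13.9 CPM in control and 76.6, 51.2, 16.5 and 4.56 CPM in SIVA-D160N. It was lower by more than 2-fold in MDA-MB-231 and SKOV3 and near control in the other lines.

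Ribosome biogenesis genes, which make rRNA and assemble ribosomal subunits in the nucleolus, had medians above 0 in 3 lines. Of 26 genes, 11 were higher and 0 lower at an unadjusted p under 0.05, against 6.52% of all genes higher. All 4 lines were higher for 6 of the 26, against 6.85% of all genes. The median was 0.25, and by line it was 0.29, 0.34, -0.12 and 0.40. The count was 7 without MDA-MB-231, 6 without HCC1954, 18 without OVCAR8, 5 without SKOV3 and 4 in a fit of the 8 libraries alone. The shares of all genes higher in those fits were 5.51%, 3.93%, 6.69%, 6.14% and 3.17%. UTP20, a factor for the small subunit, was at 98, 48.3, 110.2 and 96.5 CPM in control and 175, 81.9, 135 and 127 CPM in SIVA-D160N, with a fitted log2 fold change of 0.57 (standard error 0.10, edgeR FDR 0.128). NIP7, POLR1A and WDR43 were also higher in all 4 lines, with fitted log2 fold changes of 0.42, 0.29 and 0.29. POLR1A is the large subunit of the polymerase that makes rRNA. Against SIVA-WT, 19 of the 26 genes were higher in SIVA-D160N at an unadjusted p under 0.05, against 2.58% of all genes, and the median difference was 0.30. SIVA-WT against control had a median of -0.04 in this list, and both of these comparisons use the same SIVA-WT libraries. The SIVA-D160N libraries are likewise shared by the comparisons with SIVA-WT and with control.

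**Figure D4:**
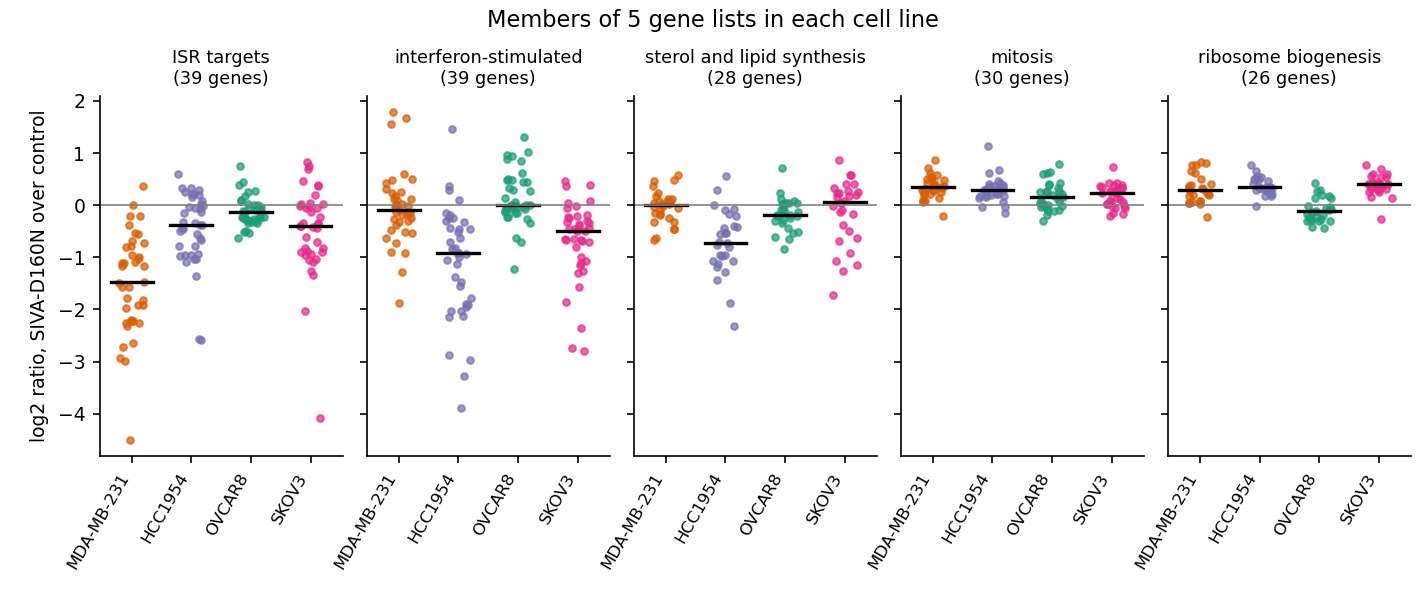
Each point is the log2 ratio of SIVA-D160N over control for 1 gene of 5 lists, by line, and the bars are medians. In the stress response list MDA-MB-231 lies lowest, in the interferon and sterol lists HCC1954, and in the mitosis list all 4 medians are above 0.

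The immediate early genes, which growth factor signals turn on within minutes, and the genes driven by ERK signalling differed between the lines. Of 19 immediate early genes, 5 were lower (26.3%, against 7.68% of all genes) and 0 higher at an unadjusted p under 0.05. The line medians were -1.05, 0.23, -0.12 and -0.70. Without HCC1954 13 were lower, and without SKOV3 3. FOS, a partner of JUN in AP-1, was at 13.5, 107, 2.27 and 137 CPM in control and 2.89, 47.8, 2.12 and 11 CPM in SIVA-D160N. JUND, also of AP-1, was at 15.2, 87.2, 29.1 and 43.9 CPM in control and 10.6, 29.4, 20.9 and 37.7 CPM in SIVA-D160N, and it was lower in all 4 lines (edgeR FDR 0.175). Of 20 genes of ERK output, 5 were lower and 1 higher (25% and 5%, against 7.68% and 6.52% of all genes). The line medians were -0.65, 0.25, 0.14 and -1.16. Without HCC1954 12 were lower, without OVCAR8 9 and without SKOV3 2. SPRY4, a feedback inhibitor of receptor signalling, was at 351, 34.1, 24 and 43.6 CPM in control and 182, 18.7, 26.4 and 12.8 CPM in SIVA-D160N. EPHA4, an ephrin receptor, was the gene of that list that was higher, at 1.39, 15, 3.07 and 16.1 CPM in control and 3.16, 26.9, 3.98 and 27.5 CPM in SIVA-D160N, with a fitted log2 fold change of 0.78 (standard error 0.17, edgeR FDR 0.137).

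Lists tied to migration and invasion, which are among the cell behaviours the study measured, had no common direction. At an unadjusted p under 0.05, 6.52% of all genes were higher and 7.68% lower. Of 23 integrins and laminins 2 were higher (8.7%) and 1 lower (4.35%). Of 29 invasion proteases 4 were higher (13.8%) and 3 lower (10.3%). Of 32 matrix proteins 8 were higher (25%) and 3 lower (9.38%). Of 24 genes of epithelial and mesenchymal state 1 was higher (4.17%) and 4 lower (16.7%). HCC1954 had medians above 0 in all 4 lists, at 0.68, 0.57, 0.50 and 0.37, and MDA-MB-231 had medians below 0, at -0.29, -0.40, -0.16 and -0.17. Without HCC1954 the counts were 0 higher and 6 lower for integrins and laminins, 2 and 8 for proteases, 6 and 6 for matrix proteins, and 2 and 4 for epithelial and mesenchymal state. The integrin and laminin list had 0 higher and 0 lower without OVCAR8. The protease list had 10 higher without MDA-MB-231 and 2 higher without OVCAR8. The matrix list had 2 higher without SKOV3, and the list of epithelial and mesenchymal state had 0 higher without SKOV3 and 2 lower without MDA-MB-231. ITGAV, the alpha-v integrin, was at 92.9, 159, 79.5 and 174 CPM in control and 79.5, 294, 133 and 199 CPM in SIVA-D160N. VIM, the mesenchymal filament vimentin, and ZEB1, which represses epithelial genes, were named after their values were seen. VIM was at 3932, 95.6, 3255 and 3716 CPM in control and 3237, 290.2, 3148 and 3522 CPM in SIVA-D160N, so that HCC1954 alone was higher. ZEB1 was at 108, 0.168, 19.9 and 98.3 CPM in control and 96.7, 1.63, 33.6 and 73.8 CPM in SIVA-D160N.

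MMP14, the membrane-bound collagenase, was lower, at 988, 46.1, 160.5 and 1.85 CPM in control and 608, 16.5, 154 and 0.640 CPM in SIVA-D160N, with a fitted log2 fold change of -0.82 (standard error 0.21, edgeR FDR 0.166). CTSB, the lysosomal protease cathepsin B, was lower in all 4 lines, at 255, 398, 411 and 851 CPM in control and 180, 288, 366 and 720.1 CPM in SIVA-D160N. ADAMTS1, a secreted protease of the matrix, was higher in 3 lines, at 28.5, 1.87, 73.9 and 90.7 CPM in control and 73.3, 3.62, 66.1 and 207 CPM in SIVA-D160N. POSTN, the matrix protein periostin, was at 0, 0.168, 0 and 117 CPM in control and 0, 0.314, 0.131 and 375 CPM in SIVA-D160N, so that only SKOV3 held much of it. THBS3, a thrombospondin, was lower in all 4 lines, at 10.5, 21.8, 26.4 and 20.5 CPM in control and 5.44, 12.8, 21.2 and 13.7 CPM in SIVA-D160N (edgeR FDR 0.166). KRT19, an epithelial keratin, was lower in 3 lines and held at most 1 count in OVCAR8, at 89.7, 30.9, 0.0274 and 1.19 CPM in control and 63.9, 13.5, 0 and 0.887 CPM in SIVA-D160N.

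The Hippo pathway holds back YAP, a coactivator of growth genes. Its 25 listed components and targets had 5 genes higher (20%, against 6.52% of all genes) and 0 lower. Without HCC1954 1 was higher, where 3.93% of all genes were higher. NF2, the tumour suppressor merlin that acts above the Hippo kinases, was higher in all 4 lines, at 14.4, 91.8, 1.81 and 124 CPM in control and 20.1, 108, 2.46 and 211 CPM in SIVA-D160N. The standard YAP target genes CTGF and CYR61, named after their values were seen, had fitted log2 fold changes of -0.16 (standard error 0.39) and 0.24 (standard error 0.28). Of 30 genes of PI3K, AKT and mTOR signalling, 4 were higher and 3 lower (13.3% and 10%, against 6.52% and 7.68% of all genes). Leaving out any 1 line gave 2 to 3 higher and 2 to 3 lower. MTOR was higher in all 4 lines by a small step, at 67.5, 117, 104 and 133 CPM in control and 79.8, 141, 120.4 and 164 CPM in SIVA-D160N, and EIF4EBP1, which mTORC1 inhibits, was lower in all 4, at 153, 48.5, 236 and 75.9 CPM in control and 98.6, 43.4, 177 and 59.9 CPM in SIVA-D160N. Of 25 autophagy genes, 4 were lower and 0 higher, a share lower of 16% against 7.68% of all genes. The count lower was 4 without MDA-MB-231, 3 without HCC1954, 4 without OVCAR8 (with 1 higher) and 6 without SKOV3. It was 2 in a fit of the 8 libraries alone, where 4.35% of all genes were lower. Among the 4 lower genes was GABARAPL1, which builds the autophagosome, at 39, 47.4, 18.1 and 14.1 CPM in control and 14.2, 19.1, 14.7 and 9.68 CPM in SIVA-D160N.

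Of 11 SIVA partners and regulators tested, 1 (SIVA1) was higher and 2 were lower (9.09% and 18.2%, against 6.52% and 7.68% of all genes). Their median was -0.03 (-0.09 to 0.03 with 1 line left out). BCL2L1, which encodes BCL-XL, was at 719, 109.8, 118 and 303 CPM in control and 623, 95.5, 119 and 286 CPM in SIVA-D160N. Of 30 apoptosis genes 0 were higher and 4 lower, a share lower of 13.3% against 7.68%. Without SKOV3 1 was higher and 2 lower, and without MDA-MB-231 2 were higher and 2 lower. The counts of the SIVA list ran from 0 to 1 higher and 0 to 2 lower when any 1 line was left out. BBC3, which encodes the death activator PUMA, was lower in all 4 lines, at 23.7, 1.94, 1.89 and 3.42 CPM in control and 7.55, 1.06, 1.36 and 2.54 CPM in SIVA-D160N, with a fitted log2 fold change of -0.91 (standard error 0.21, edgeR FDR 0.154). MCL1, an inhibitor of apoptosis, was lower in MDA-MB-231 and SKOV3 and higher in the others, at 929.9, 477, 346 and 968 CPM in control and 493, 523, 380.2 and 503 CPM in SIVA-D160N.

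The remaining lists gave smaller counts. Of 21 genes driven by the antioxidant factor NRF2, 6 were lower (28.6%, against 7.68% of all genes) and 0 higher. The count lower was 1 without HCC1954 and 2 without MDA-MB-231 but 12 without SKOV3. AKR1C3, a steroid reductase that may share reads with its close relatives, was at 9.13, 236, 2.17 and 125 CPM in control and 7.24, 51.3, 1.96 and 103 CPM in SIVA-D160N. Of 18 cytokine genes, 2 were higher (11.1%, against 6.52% of all genes) and 0 lower. The line medians of -1.10, 0.93, 0.47 and 0.00 pointed both ways. Without MDA-MB-231 7 were higher, and without OVCAR8 4 were lower, against 5.51% and 8.18% of all genes. The higher genes in the fit of all lines were IL24, an interleukin of the IL-10 family, at 0, 0.744, 0.301 and 0 CPM in control and 0, 13.9, 0.366 and 0.0246 CPM in SIVA-D160N, and IL7R, the interleukin 7 receptor, at 0, 18.8, 118 and 0.768 CPM and 0.0729, 95.5, 131 and 7.88 CPM. Of 29 growth factors and receptors, 5 were higher (17.2%, against 6.52% of all genes) and 2 lower (6.9%, against 7.68%). These counts were 7 and 1 without MDA-MB-231 and 6 and 3 without HCC1954. KITLG, the ligand of the KIT receptor, was higher in all 4 lines, at 1.75, 80.5, 4.19 and 34.6 CPM in control and 4.18, 90.5, 10.5 and 62.9 CPM in SIVA-D160N (edgeR FDR 0.130). ERBB2 was lower in the 2 lines that hold much of it, from 9223 to 5736 CPM in HCC1954 and from 12170 to 5964 CPM in SKOV3. Of 31 glycolysis and hypoxia genes, 1 was higher (3.23%, against 6.52% of all genes) and 3 lower (9.68%, against 7.68%). These counts were 3 and 5 without OVCAR8 and 4 and 2 without SKOV3. The genes printed in the study's pathway table were chosen on these samples. All 31 that were tested had an unadjusted p under 0.05, with 17 higher and 14 lower, which is not independent evidence of their direction. Of these 31, 0 passed an FDR of 0.05, and the smallest FDR was 0.13. The study states limits of FDR 0.05 and log2 fold change 1.5, and it reports many more genes than the 1 called here. The reason for that gap was not tested.

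The SIVA-WT libraries gave values for the same lists. SIVA-WT and SIVA-D160N share the control libraries, so their medians of fitted log2 fold change against control are only set side by side. The stress response list was at -0.23 in SIVA-WT and -0.56 in SIVA-D160N, and the interferon list at -0.24 and -0.38. Immediate early genes were at -0.22 and -0.55, and ERK output genes at -0.33 and -0.34. Mitosis genes were at 0.08 and 0.25, DNA replication genes at 0.05 and 0.22, and matrix proteins at 0.27 and 0.20. At an unadjusted p under 0.05, SIVA-WT was lower than control for 184 and higher for 253 of the 17211 genes, 2.54% in either direction. It was lower for 2 of 39 stress response genes and 4 of 39 interferon genes, and higher for 7 of 32 matrix genes. In the direct test of SIVA-D160N against SIVA-WT, 11 stress response genes were lower and 1 higher, 6 interferon genes were lower and 0 higher, and 6 matrix genes were lower and 1 higher, against 4.30% and 2.58% of all genes. The same test had 3 mitosis genes and 2 DNA replication genes higher and none lower, and no immediate early or ERK output gene in either direction. It uses the same SIVA-D160N libraries as the comparison with control, so it is not independent of it.

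Over all genes tested, those at least 1.5-fold lower outnumbered those at least 1.5-fold higher in MDA-MB-231 (11.8% and 8.72%), HCC1954 (13.1% and 11.1%) and SKOV3 (14.3% and 7.04%), while in OVCAR8 higher genes outnumbered lower genes (7.93% and 5.14%).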

How the data were processed

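RNA of MDA-MB-231, HCC1954, OVCAR8 and SKOV3 cells was sequenced as paired-end stranded mRNA libraries (TruSeq), 1 library for each line and condition, 12 in all. The authors deposited whole-number counts per gene for 57187 genes. The submitters' processing notes name FastQC, STAR 2.5.3a, GRCh38 and edgeR. Whether counting used strand is not given in the sources used here, so genes that overlap or lie antisense to each other cannot be told apart. A table of CPM values that the authors also deposited was not used. The number of columns without a sample was 0.

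Counts of all 12 libraries were fitted with edgeR 4.0.16 (R 4.3.3, TMM scaling, filterByExpr by condition, quasi-likelihood test, terms for line and condition). P-values were adjusted over all 17211 genes tested by the Benjamini-Hochberg method. Nothing separates cultures of a line, so the spread is that between lines. The lines pair the libraries: deviations from the condition means correlated at 0.929 to 0.947 across genes within a line. Between lines the values were -0.427 to -0.195, but centring on the mean of 4 lines itself pushes these below 0. Log2 ratios within a line used a prior count of 2. Intervals and floors cover counting error only. The members and the 26 gene lists were chosen with earlier results of these data known, and 1 list and some genes are not reported here. Named genes were SIVA1, genes past both thresholds, protein-coding genes at least 1.5-fold one way in all 4 lines (up to 15 a direction) or 2-fold in exactly 3 (up to 5 a direction), and up to 4 genes a list with the smallest p. Other genes are marked in the text as named after their values were seen, except control and marker genes and those whose promoter is shown. On simulated counts of 16894 genes the fit called 73.8% of 65 genes changed by a log2 of 1 at an FDR under 0.05. It also called 98.5% of 65 changed by 2, and 13 of 16701 unchanged genes. These shares need not hold for changes that differ between lines. In the real counts SIVA1 (1.71) and NUPR1 (-2.17) had edgeR FDR values of 0.292 and 0.128. Alternatives used DESeq2 1.42.0, limma 3.58.1 (voom), other scalings, filters and blocks, and each line left out.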

Additional observations from a re-analysis of the deposited data

Results flagged for a closer look

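The log2 ratios of SIVA-D160N over control were searched for a line far from the other 3 in 145 sets of 4 lines. In 8 sets 1 line stood apart by the Dixon test, where chance gives 7.25 (1 in 20). HCC1954 was the line that stood apart for SIVA1 (9.06, against 1.09 to 1.28 in the other lines, a value set by the prior count because the control held 0 counts, where SIVA-D160N was at least 369-fold higher by the 3-count floor), IL24 (4.14, against 0 to 0.58), AKR1C3 (-2.20, against -0.33 to -0.14), CDH2, the gene of N-cadherin (1.79, against 0.19 to 0.42), VIM (1.6, against -0.28 to -0.05) and STK3, a Hippo kinase (0.57, against 0.17 to 0.21). SKOV3 stood apart for FOSB (-5.94, against -1.05 to -0.66) and MDA-MB-231 for AARS (-0.73, against -0.34 to -0.28). The glycolysis and hypoxia list had medians above 0 in both breast lines and below 0 in both ovarian lines, and the mean of the breast lines was higher by 0.25 on the log2 scale. That difference was not tested.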

How the results depend on the processing

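DIO2 was the 1 gene called by edgeR's quasi-likelihood test, and RLE scaling, no TMM scaling and an FDR limit alone also gave 1. The count was 12 with DESeq2's Wald test, 27 with limma-voom, 52 with edgeR's likelihood ratio test, 172 with all genes of at least 1 count, 2445 at an unadjusted p under 0.05, and 0 in edgeR's fit of the 8 libraries alone (1215 genes at an unadjusted p under 0.05). Leaving out each line gave 0 to 2 genes, with 0 without MDA-MB-231 (2095 at an unadjusted p under 0.05) or SKOV3 (2454). Which genes these counts held was not compared, and the cause was not tested.

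The pairing by cell line was part of the main design. With no replicate block 0 genes were called (24 at an unadjusted p under 0.05), and the fitted log2 fold changes of CYR61, VIM and ZEB1 turned to -0.15, -0.109 and -0.141. Leaving out each line moved VIM between -0.135 (without HCC1954) and 0.486, and CTGF between -0.30 and 0.13 (without MDA-MB-231). None of these 4 genes passed an FDR of 0.05 with the block and all lines.

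The 6 genes at least 1.5-fold one way in all 4 lines became 1 at 2-fold, 11 with a floor of 0.5 CPM, 2 with a floor of 5 CPM, and 11 to 87 among 3 lines when 1 line was left out. Other scalings and prior counts gave 6 or 7. SIVA1 had an FDR of 0.292 in edgeR's quasi-likelihood test (log2 fold change 1.71). It was 0.00211 with all genes of at least 1 count (log2 fold change 1.72) and 0.0211 without HCC1954 (1.21), and leaving out each line gave 1.21 to 2.01. Of 1407 values of 118 named genes under alternatives, 1365 kept direction and side of both call limits together (FDR and log2 fold change). Of the rest, 33 newly passed both, 4 no longer did and 5 changed direction. The FDR limit alone was met by 186 of the 1407 values. Only DIO2 passed both limits in the main fit, so for the other genes keeping side means only that they stayed uncalled. Of 312 list medians 308 moved by less than the spread between lines. That limit is wide where the lines disagree, so the count does not show that a list is stable. The cytokine median of 0.027 counted as unmoved at -0.486 without HCC1954 and at 0.394 without MDA-MB-231.

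Each line gave 1 library of each kind, so no spread within a line was measured. At 35791455 to 45890398 counts a library, 3 counts stand for 0.0664 to 0.0856 CPM, and lower levels could not be told from 0.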
